A study of Homo sapiens with 3 samples.

Results

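ZFAS1 and 9 further noncoding genes that carry small nucleolar RNAs (snoRNAs) in their introns were followed through a PAR-CLIP experiment on the RNA-binding protein MATR3. The 10 genes are ZFAS1, GAS5, SNHG1, SNHG3, SNHG5, SNHG6, SNHG8, SNHG12, SNHG14 and SNHG16. Members were taken by the gene name that the authors gave each cluster of reads, from their HAVANA or ENSEMBL annotation. They accounted for 41 of 87230 clusters in wild-type (WT) replicate 1, called WT1 here, 18 of 27155 in the second WT replicate, WT2, and 0 of 842 in the library from MATR3 knockout (KO) cells. ZFAS1 had been picked because many reads fell on it, so its read totals are given as a description and support nothing.

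PAR-CLIP finds the RNA that a protein touches in living cells: RNA carrying 4-thiouridine is crosslinked to the protein by UV light, and the crosslinked uridine is later read as C. All libraries came from HAP1, an established near-haploid human line derived from KBM-7 leukaemia cells. The WT group is 2 libraries of unedited HAP1 cells, which the design text calls independent, and the KO group is 1 library of a commercial MATR3 knockout HAP1 line. Crosslinked complexes were recovered on anti-FLAG beads in every library, and the labels record no tag on MATR3. The cluster tables held 2668797 reads in WT1, 1558995 in WT2 and 224142 in KO, and MATR3 itself had 53, 26 and 0 clusters. These totals are reads within called clusters, so the sequencing depth is not known. Transcript levels were not measured either, so more contact per transcript and more transcript cannot be told apart, and the cell line could not be checked against expression markers.

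snoRNAs are short nuclear RNAs that guide chemical modification of ribosomal and other RNA: box C/D members direct ribose methylation and box H/ACA members direct pseudouridylation. Most human snoRNAs are cut out of the introns of a host gene, and many noncoding hosts, such as GAS5, have exons that are spliced into an RNA with no known long protein product. MATR3 is an abundant protein of the nuclear matrix that binds pyrimidine-rich RNA, mostly in introns. ZFAS1 (ZNFX1 antisense RNA 1) carries the box C/D snoRNAs SNORD12, SNORD12B and SNORD12C.

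The sequences that carry the agreement between the WT libraries are shown first. Each is a cluster of WT1 on the plus strand of chromosome 20 in ZFAS1, or on the minus strand of chromosome 11 in SNHG1, written 5′ to 3′ along the RNA as deposited, with T for U. Capitals mark the bases that a cluster of WT2 also covered. Coordinates are those of the tables, whose builds are hg38 and GRCh38.p5 per the submitters' processing notes.
ZFAS1 chr20:49285642-49285796: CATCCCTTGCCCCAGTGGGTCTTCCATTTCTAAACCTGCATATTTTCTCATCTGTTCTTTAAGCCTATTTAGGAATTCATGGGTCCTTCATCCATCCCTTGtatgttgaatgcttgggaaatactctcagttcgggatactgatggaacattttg
ZFAS1 chr20:49286019-49286106: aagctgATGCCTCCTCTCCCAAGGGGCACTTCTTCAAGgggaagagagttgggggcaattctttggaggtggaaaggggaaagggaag
ZFAS1 chr20:49286114-49286140: TATCCTTTTTACATTGTTCTATTTCAT
ZFAS1 chr20:49286145-49286228: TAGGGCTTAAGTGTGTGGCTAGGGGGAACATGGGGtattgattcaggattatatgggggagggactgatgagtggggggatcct
ZFAS1 chr20:49286480-49286662: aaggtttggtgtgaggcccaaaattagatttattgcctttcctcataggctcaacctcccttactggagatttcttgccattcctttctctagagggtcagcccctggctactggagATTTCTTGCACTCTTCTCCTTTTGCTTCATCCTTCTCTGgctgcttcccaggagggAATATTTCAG
SNHG1 chr11:62852113-62852148: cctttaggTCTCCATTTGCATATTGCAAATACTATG
SNHG1 chr11:62852169-62852214: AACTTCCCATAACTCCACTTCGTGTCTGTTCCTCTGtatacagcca

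The shared stretches differ in make-up. The shared part of the ZFAS1 cluster at 49286114 is mostly T, whereas the shared part of the neighbouring cluster at 49286145 is mostly G and A. A further ZFAS1 pair, at 49286874 to 49286910 in WT1 and 49286850 to 49286874 in WT2, shared only 1 nt. Clusters that had no partner in the other library are shown next, with their longest pyrimidine run in capitals, or the first of them where runs tie, as in ZFAS1. They are the ZFAS1 cluster with the most reads of all, with 2066 reads in WT2, the only SNHG16 cluster, and the SNHG1 cluster nearest to the start of that gene, which had 19 reads.
ZFAS1 chr20:49285507-49285588: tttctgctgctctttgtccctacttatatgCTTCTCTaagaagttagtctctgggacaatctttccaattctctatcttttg
SNHG16 chr17:76564560-76564585: atcactaCCTTTTTTTCTCTTatctg
SNHG1 chr11:62855796-62855825: tactttgTCTTTTTCTTTTattttcttttg

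Clusters and reads differed widely among the hosts. ZFAS1 had 30 clusters with 3455 reads in WT1 and 15 clusters with 4025 reads in WT2. These reads held 498 distinct read sequences in WT1 and 216 in WT2, so the order of the libraries reversed. That is 6.94 and 18.6 reads per distinct sequence, against 7.58 and 17.9 over all clusters. Read totals in this report therefore include many copies, and more of them in WT2. SNHG1, the host of a row of box C/D snoRNAs from SNORD22 to SNORD31, had 5 clusters with 233 reads and 2 clusters with 142 reads. ZFAS1 thus held 91.0% and 92.7% of all reads on the 10 genes, a mean of 91.9 ± 1.17% (SD, n = 2). It held 0.129% of all cluster reads of WT1 and 0.258% of WT2, a mean of 0.194 ± 0.0910% (SD, n = 2). The other 9 genes together held 0.0127% and 0.0203%, a mean of 0.0165 ± 0.00537% (SD, n = 2). ZFAS1 was picked for its reads, so nothing is read from this gap. Without its strongest cluster in each library ZFAS1 held a mean of 0.113%, and among clusters with at least 3 converted positions 0.402%.

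**Figure D1:**
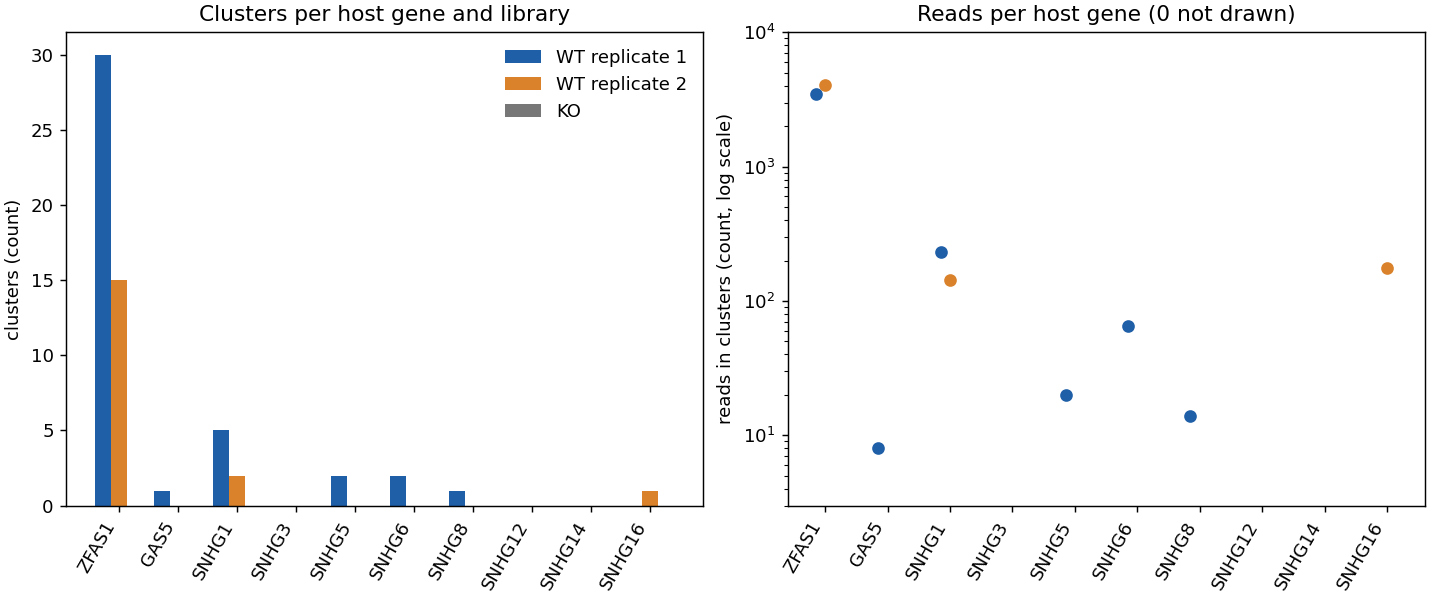
Clusters (left, bars, linear scale) and reads in clusters (right, points, log scale) of the 10 host genes in WT1 (blue), WT2 (orange) and KO (grey). ZFAS1 reached 3455 and 4025 reads, while no other host passed 233 reads, and the KO library had no cluster on any of them.

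The remaining hosts with clusters were seen in 1 WT library each. SNHG6, the host of SNORD87 on chromosome 8, had 2 clusters with 65 reads in WT1. SNHG5, the host of SNORD50A and SNORD50B on chromosome 6, had 2 clusters with 20 reads there. SNHG8 on chromosome 4, which carries the box H/ACA snoRNA SNORA24, had 1 cluster of 14 reads. GAS5 on chromosome 1, whose RNA accumulates in growth-arrested cells and whose introns hold a series of box C/D snoRNAs, had 1 cluster of 8 reads, close to the lowest count of 5 found in any table. SNHG16 on chromosome 17, the host of SNORD1A, SNORD1B and SNORD1C, went the other way, with 1 cluster of 175 reads in WT2 and none in WT1. Those 175 reads held 7 distinct read sequences. SNHG3, SNHG12 and SNHG14 had no cluster under their names in any library.

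By gene, 7 of the 10 members had a cluster in either WT library and 2 of them, ZFAS1 and SNHG1, had clusters in both. Of all genes found in at least 1 WT library, 56.9% had clusters in both. In WT1 a cluster was found for 6 of the 10 members, against 1.46% of all RefSeq lncRNA genes, and in WT2 for 3 of the 10, against 0.736%. In either WT library it was 7 of the 10, against 1.60%. How many of these lncRNA genes the authors' annotation names is not known, and ZFAS1 was chosen with its clusters known. The median was 1 cluster per member in WT1 and 0 in WT2, and over all genes with a WT cluster, a set chosen for having one, it was 4 and 1. Apart from ZFAS1 and SNHG1, no member had more than 2 clusters in a library.

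No member had a KO cluster, as was the case for most genes: 5.88% of the genes with a WT cluster also had 1 in KO. At the WT shares of clusters, a library of 842 clusters would hold 0.396 or 0.558 member clusters. A difference between WT and KO was therefore not detectable at this depth, and with 1 KO library no test was made.

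Gene length alters the order of the hosts below ZFAS1 and SNHG1 in WT1. Over the RefSeq gene span (GRCh38.p14), ZFAS1 at 11083 nt had 2.71 clusters per kb in WT1 and 1.35 in WT2, and SNHG1 at 3908 nt had 1.28 and 0.512. All clusters under a gene's name were counted, and of the 30 ZFAS1 clusters of WT1, 27 lay inside the span. SNHG8, which spans 1062 nt, reached 0.942 clusters per kb with its single cluster, above the 0.519 of SNHG6 with 2 clusters. SNHG14, the long imprinted transcript that carries the SNORD115 and SNORD116 arrays and runs antisense to the ubiquitin ligase gene UBE3A, spans 595855 nt. No cluster lay on the SNHG14 strand within that span in any library. The opposite strand of the same span held 49 clusters with 1886 reads in WT1, 43 of them named UBE3A, and 16 clusters with 671 reads in WT2, all named UBE3A. The KO library had 1 UBE3A cluster of 178 reads there.

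For SNHG3, host of the box H/ACA snoRNAs SNORA73A and SNORA73B, the absence of clusters rests on the naming. Its RefSeq interval on chromosome 1, from 28505943 to 28510892 on the plus strand, held 9 clusters with 595 reads in WT1. The authors assigned 8 of these to RCC1, a chromatin-bound exchange factor for the GTPase Ran whose transcripts overlap SNHG3 on the same strand, mostly as intron. The other was named U17 and overlapped SNORA73B. WT2 and KO had no cluster in the interval. RCC1 and SNHG3 reads cannot be told apart there. With members found by RefSeq interval instead of name, the mean share of the other 9 hosts was 0.0287%. SNHG5 was the reverse case: both of its clusters lay outside the RefSeq interval of the gene, 3804 and 15962 nt from its start, and the authors classed them as lincRNA intron.

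The annotation classes of the host clusters differed from those of the libraries. Introns, including lincRNA introns, held 85.3% of all clusters in WT1 and 84.5% in WT2. Among the member clusters they held 3 of 41 (7.32%, 95% Wilson interval 2.52 to 19.4%) in WT1 and 0 of 18 in WT2. Much of this was fixed by the labels: all 45 ZFAS1 clusters, 30 of the 41 and 15 of the 18, were classed as antisense. That class does not say exon or intron, so ZFAS1 clusters could not count as intronic. With members found by RefSeq interval the intronic share was 17.0% in WT1 and 0% in WT2. The WT1 value then counted the clusters of the SNHG3 interval that the authors classed as RCC1 intron. Among member clusters classed as lincRNA exon or lincRNA intron, exons held 7 of 10 (70.0%, 39.7 to 89.2%) in WT1 and 3 of 3 in WT2. Over all clusters of these classes the exon share was 13.1% (11.3 to 15.1%) and 10.2% (7.65 to 13.5%). The lower limit for the members lay above the upper limit for all lincRNA clusters in each WT library. SNHG1 alone, however, gave 5 of the 7 and 2 of the 3. The intervals treat clusters as independent, which clusters of the same gene are not. How much of these genes is exon was not compared with all lincRNA genes. A preference for exons was therefore not tested, and nothing is concluded from the limits.

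ZFAS1 led the antisense class by reads. It held 16.1% of the reads of all antisense clusters in WT1 and 30.9% in WT2. The next gene by reads, DLEU2, had 1225 reads in 46 clusters and 549 reads in 11 clusters. ZFAS1 therefore had fewer clusters than DLEU2 in WT1 and more reads.

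ZFAS1 ranked higher by reads than by clusters. In WT1 it ranked 23 of 9189 genes by reads and 505 by clusters, and in WT2 it ranked 7 of 6043 by reads and 212 by clusters. Its mean was 115 reads per cluster in WT1 and 268 in WT2. Among genes with at least 10 clusters the medians were 28.4 and 53.8, with 5 of 2573 genes and 2 of 609 genes above ZFAS1. The reads were spread unevenly over the clusters. The strongest cluster held 22.9% of the ZFAS1 reads in WT1 and 51.3% in WT2, and the strongest 5 held 67.4% and 87.5%. These values use the reads for which the gene was picked.

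The 3 genes closest to ZFAS1 in read share over the 2 WT libraries reached that share in other ways. Distance was measured in log2 percent of cluster reads among 5526 genes with clusters in both WT libraries. MT-CO3, a mitochondrial subunit of cytochrome c oxidase, stood at a distance of 0.34 with 5 clusters in each WT library. AUTS2, a nuclear regulator of neurodevelopment on chromosome 7, stood at 0.40 with 121 and 64 clusters, of which 120 and 64 were intronic. MLLT10, a chromatin reader on chromosome 10, stood at 0.43 with 82 and 46 clusters, of which 82 and 45 were intronic. KO had 2, 2 and 1 clusters on these genes and none on ZFAS1. At the WT shares of clusters, all 10 members together would have 0.396 or 0.558 of 842 KO clusters. Nothing is therefore read from these KO counts.

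ZFAS1 clusters were concentrated in a stretch away from its snoRNAs. Distances were counted from the RefSeq start site at 49278642 on chromosome 20. The stretch from 5 to 9 kb, bounded after the values were seen, held 19 of 30 clusters and 90.6% of the ZFAS1 reads in WT1, and 14 of 15 clusters and 99.9% of the reads in WT2. The first 5 kb, which contain all 3 snoRNAs, held 6 clusters with 207 reads and 1 cluster with 6 reads. Beyond 9 kb there were 5 clusters with 117 reads in WT1 and none in WT2. Of the 30 clusters of WT1, 27 lay inside the RefSeq interval of the gene, which ends at 49289260, as did all 15 of WT2.

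**Figure D2:**
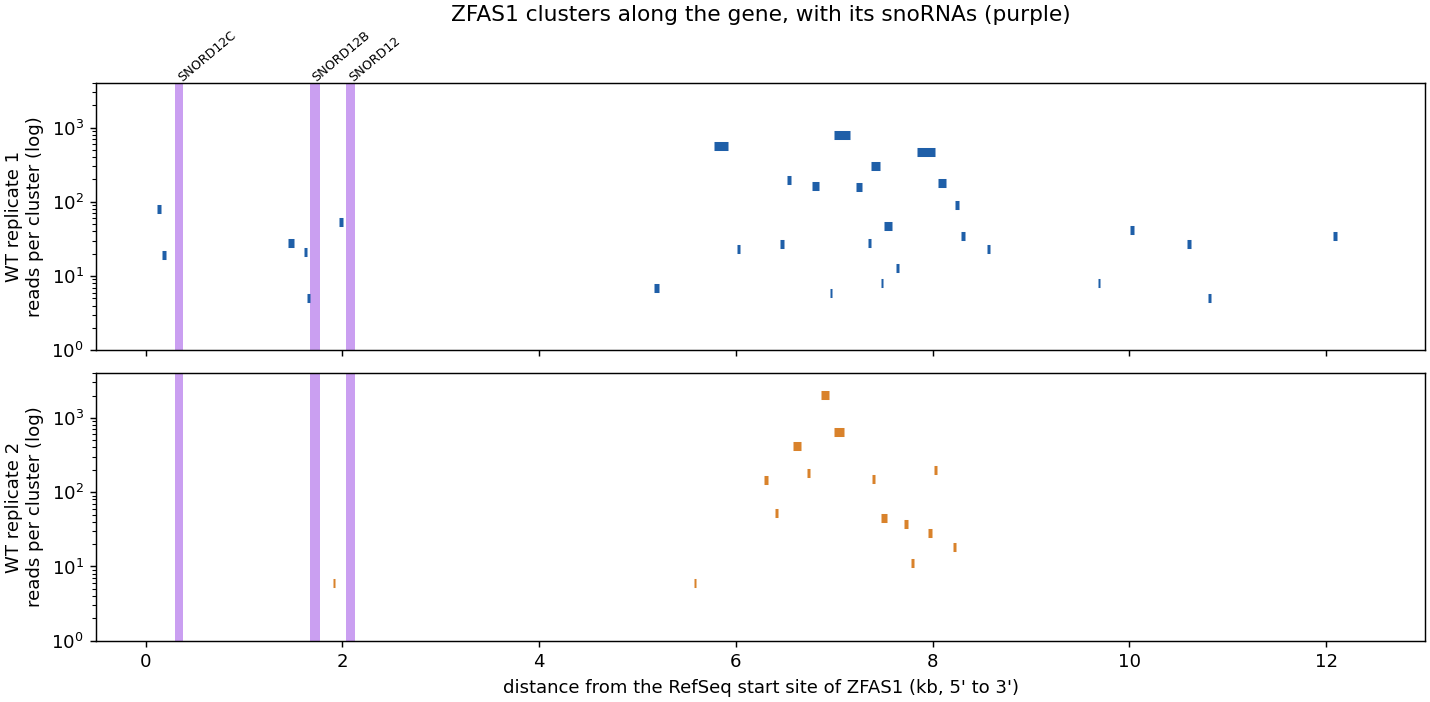
Position of every ZFAS1 cluster (horizontal axis, kb from the RefSeq start site) against its reads (vertical axis, log scale) in WT1 (blue, top) and WT2 (orange, bottom), with the 3 snoRNAs as purple bands. Each segment spans 1 cluster, and between 5 and 9 kb lie 19 of 30 and 14 of 15 clusters, far from the snoRNAs.

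The weaker clusters of the first 5 kb lay close to the snoRNAs. In WT1, clusters of 81 and 19 reads ended before SNORD12C, at 149 and 94 nt from it. Clusters of 28, 21 and 5 reads lay 168, 30 and 5 nt before SNORD12B, and 1 of 53 reads lay 39 nt before SNORD12. WT2 had 1 cluster of 6 reads in this part, 113 nt before SNORD12. All of these lay upstream of the nearest snoRNA and none overlapped it. On SNORD12 itself WT1 had 1 cluster of 8 reads, named for the snoRNA at 49280705 to 49280750.

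Few of the members' own snoRNAs carried a cluster. RefSeq held all 117 snoRNAs listed for the 10 hosts, of which 83 belong to SNHG14. In WT1 only 3 were overlapped by a cluster: SNORD12 with 8 reads, SNORD26 in SNHG1 with 75 reads and SNORA73B in SNHG3 with 64 reads. In WT2 and KO there was none. Counted on either strand, 3 of 117 (2.56%) were overlapped in WT1, or 3 of 34 (8.82%) without those of SNHG14, against 1.58% of all RefSeq snoRNAs. For WT2 and KO the share of all RefSeq snoRNAs was 0.0834% each. SNORD115 and SNORD116 copies are near-identical, so reads from them could be lost or split by the authors' alignment.

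SNHG1 clusters lay at the ends of the gene. In WT1 there were 4 of them between 3548 and 3787 nt from the start site, with 58, 36, 92 and 28 reads, and 1 at 60 nt with 19 reads. Both clusters of WT2, with 64 and 78 reads, overlapped the first group, at 3745 and 3671 nt. The gene spans 3908 nt, so this group lay near its 3′ end, and all SNHG1 clusters were classed as lincRNA exon. The SNHG16 cluster also lay towards the 3′ end, 6796 nt from the start of a gene that spans 7585 nt.

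The WT libraries were next compared by position, taking as shared any same-strand clusters with 1 or more nt in common. Of the 18 member clusters in WT2, 8 met a WT1 cluster, a share of 44.4% (95% Wilson interval 24.6 to 66.3%). Over all clusters of WT2 the share was 19.5%. The overlapping clusters were 6 of 15 in ZFAS1 (40%, 19.8 to 64.3%) and 2 of 2 in SNHG1, and the SNHG16 cluster had no partner. In the other direction 8 of 41 member clusters of WT1 overlapped (19.5%, 10.2 to 34%), against 6.0% of all clusters. The lower limit for the members lay above the share of all clusters in each direction. These intervals treat clusters as independent, which clusters of 1 gene are not. ZFAS1, picked for its reads, gave 6 of the 8 overlapping clusters in each library, so nothing is concluded from the limits. For WT2 the lower limit fell below the share of all when a shared cluster had to cover at least 50% of the shorter one. Then 6 of 18 member clusters overlapped (33.3%, 16.3 to 56.3%), against 19.0% of all. For WT1 that stricter rule, run in this direction after the data had been seen, gave 7 of 41 (17.1%, 8.53 to 31.3%), against 5.84% of all.

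ZFAS1 clusters had more reads than most, and clusters with more reads overlapped more often. Among clusters of at least 100 reads the share was 30% over all of WT2 and 3 of 7 in ZFAS1 (42.9%, 15.8 to 75%). In WT1 it was 30.4% over all and 3 of 8 in ZFAS1 (37.5%, 13.7 to 69.4%). Both intervals included the value of all clusters, so no difference was detectable at this number of clusters. Among the 609 genes with at least 10 clusters in WT2 the median gene had 20% of its clusters overlapping (quartiles 11.8 and 31.3%), and 70 genes lay above ZFAS1. In WT1 the median of 2573 genes was 5.88%, and 80 genes lay above ZFAS1.

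Both WT libraries had most of their ZFAS1 reads in the same stretch but shared a minority of its covered bases. Between 5 and 9 kb clusters covered 1264 nt in WT1, or 31.6% of the stretch, and 655 nt in WT2, or 16.4%. Of the bases covered in WT2, 245 nt (37.4%) were also covered in WT1. That share is close to the 31.6% which WT1 covered of the stretch as a whole. From 6 to 7 kb the tables shared no base: clusters covered 20.5% of it with 417 reads in WT1 and 27.7% with 2868 reads in WT2. This kb held 71.3% of the ZFAS1 reads of WT2 and 12.1% of those of WT1. From 7 to 8 kb both libraries covered 23.4% in common, and this kb held 52.4% of the ZFAS1 reads in WT1 and 23.0% in WT2.

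**Figure D3:**
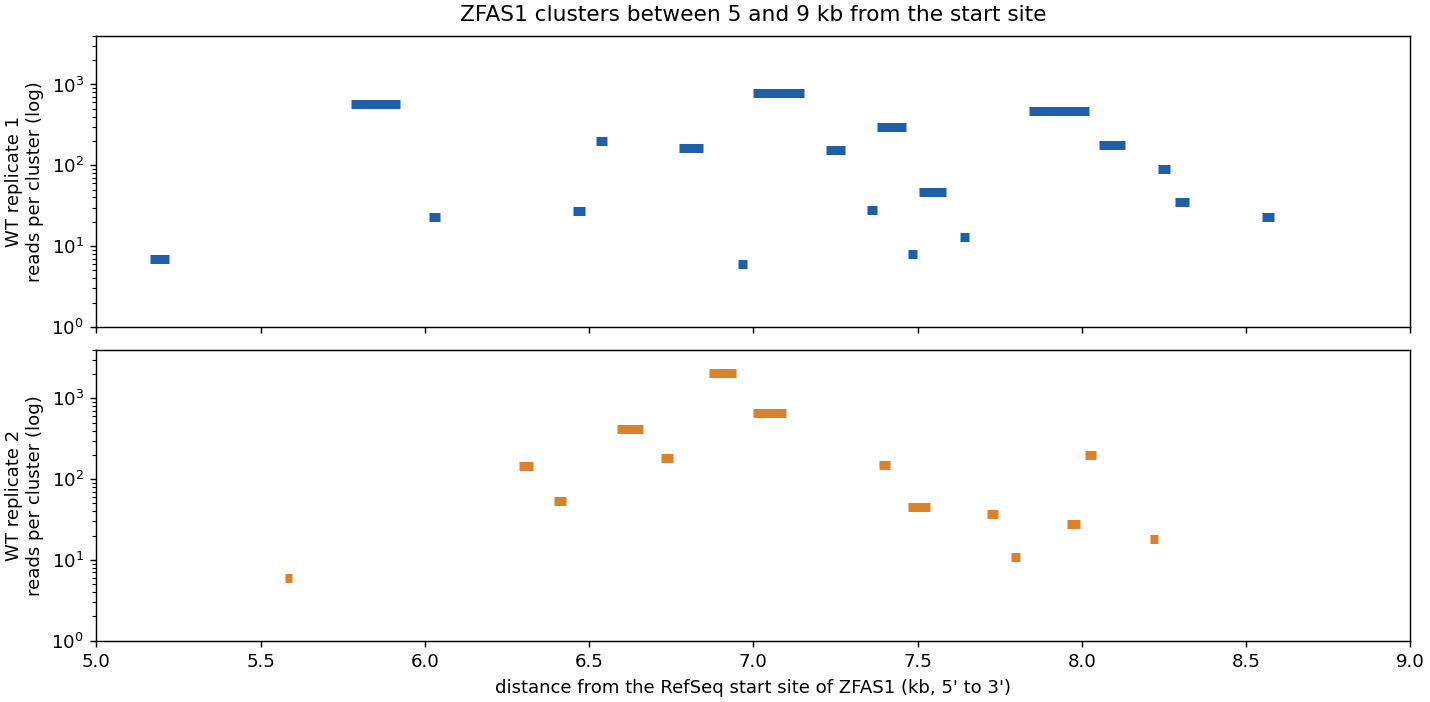
ZFAS1 clusters between 5 and 9 kb from the RefSeq start site (horizontal axis, kb) against reads per cluster (vertical axis, log scale) in WT1 (blue, top) and WT2 (orange, bottom). From 6 to 7 kb the clusters of the 2 libraries interleave with no base in common, and at 7.0 kb clusters of 790 and 655 reads begin at the same position.

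The distance of unpartnered clusters to the other library differed between the WT libraries. Distance was taken to the nearest same-strand cluster of the other library, whatever its name. For the last ZFAS1 cluster of WT1 this was a cluster beyond ZFAS1, 273 nt away. The other library had 30 ZFAS1 clusters for the clusters of WT2, and 15 for those of WT1. The 2 sets of distances are therefore not directly comparable. The 9 ZFAS1 clusters of WT2 with no overlap were 7 to 180 nt from the nearest WT1 cluster (median 29 nt), and 6 were within 50 nt. The cluster of 2066 reads was among them: it ended 7 nt before a WT1 cluster of 6 reads. Conversely, a WT1 cluster of 572 reads at 5774 nt from the start was 180 nt from its nearest neighbour in WT2, a cluster of 6 reads. For the 24 clusters of WT1 with no overlap the distances ran from 7 to 1774 nt (median 240 nt), and 7 were within 50 nt.

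The ZFAS1 pair with the most reads began at the same base, 49285642, in both libraries. It had 790 reads with 40 converted positions in WT1 and 655 reads with 20 converted positions in WT2. T-to-C changes were carried by 68.2% and 78.6% of these reads. The pair at 49286019 and 49286025 had 301 and 151 reads, of which 66.1% and 99.3% carried a change.

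Long clusters made up a larger share in ZFAS1 than in the libraries. In WT1, 10 of 30 were longer than 50 nt (33.3%), against 2.82% of all clusters. In WT2 it was 4 of 15 (26.7%), against 0.427%. Among clusters of at least 100 reads it was 7 of 8 in ZFAS1 (87.5%), against 16.8% over all of WT1. In WT2 that comparison gave 3 of 7 (42.9%), against 1.71%. The longest ZFAS1 clusters spanned 183 and 101 nt. The clusters of the other 9 hosts ran from 26 to 46 nt, and none passed 50 nt.

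Base composition differed from the libraries more in WT1 than in WT2. G made up 22.9% of the bases of ZFAS1 clusters in WT1, against 10.1% over all clusters and 10.3% over other antisense clusters. In WT2 it made up 15.6%, against 9.99% and 10.4%. T made up 31.0% in WT1, against 40.1% over all clusters, and 42.3% in WT2, against 41.8%. Higher G was thus seen in both WT libraries, and lower T in WT1 only. For the other 9 hosts together G was 15.6% over 11 clusters in WT1 and 8.89% over 3 clusters in WT2. Bases of a cluster and overlapping clusters are not independent, so no test was made.

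**Figure D4:**
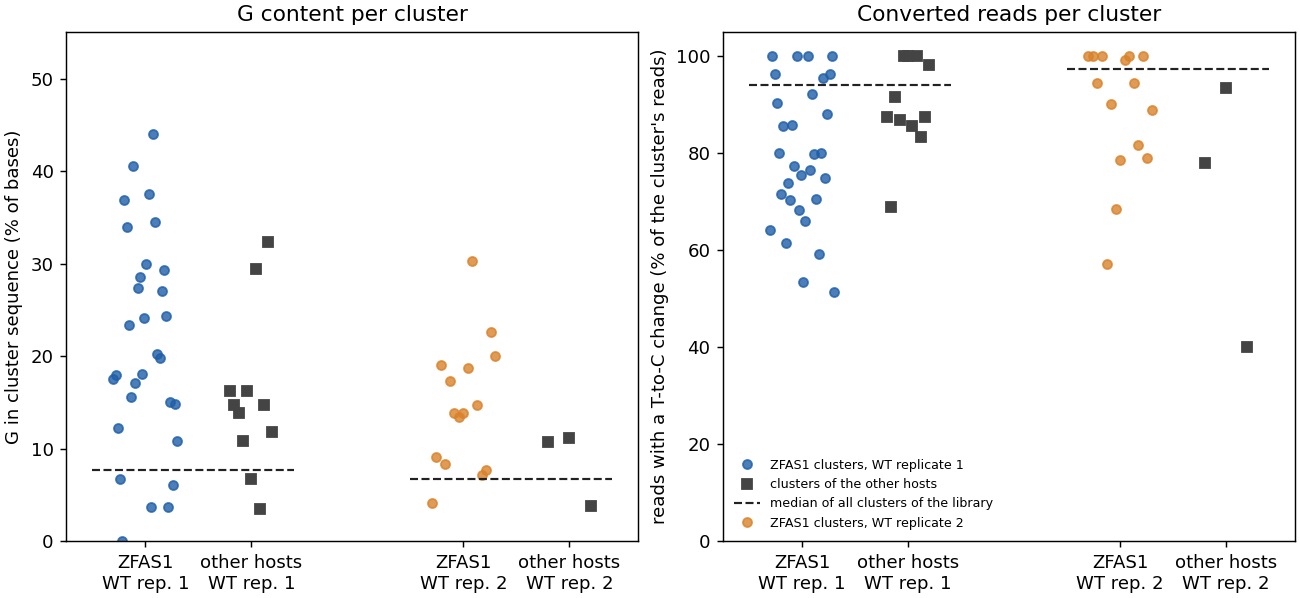
G content (left, % of bases) and reads carrying a T-to-C change (right, % of a cluster's reads) for each cluster of ZFAS1 (circles; blue, WT1; orange, WT2) and of the other hosts (squares), side by side by library. Dashed lines give the median of all clusters of that library; most ZFAS1 circles lie above the line for G and below it for T-to-C.

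Pyrimidine words were read along the RNA strand only. TTCTT was found in 5 of 30 ZFAS1 clusters in WT1 (16.7%), against 30.3% of all clusters, and in 6 of 15 in WT2 (40%), against 31.6%. TTTCT, which can overlap TTCTT, was found in 4 of 30 (13.3%, against 32.0%) and in 7 of 15 (46.7%, against 32.8%). GTGGC was found in 3 of 30 (10.0%, against 1.60%) and in 1 of 15 (6.67%, against 1.28%). GGAGA was found in 2 of 30 (6.67%, against 1.15%) and in 0 of 15 (against 0.902%). The libraries lay on opposite sides of their background for the pyrimidine words and for GGAGA, which rests on 2 clusters. They lay on the same side for GTGGC, which rests on 4 clusters. ZFAS1 clusters were longer than the usual cluster, which gives any word more places to occur.

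Conversion was compared because it marks crosslinked uridines. In ZFAS1, WT1 showed conversion of 9.15% of T events (95% Wilson interval 8.86 to 9.44%), above the 7.98% of all its clusters. In WT2 it was 6.18% (5.98 to 6.38%), below the 7.55% of all its clusters. The mean was 7.66 ± 2.10% (SD, n = 2). The low WT2 value rested largely on the cluster of 2066 reads, of whose T events 5.03% were converted. Without the strongest cluster of each library ZFAS1 had 9.27% in WT1 and 7.52% in WT2. A WT2 cluster of 420 reads was lower still, at 3.86%. Among clusters of at least 100 reads ZFAS1 had 9.02% in WT1 and 6.15% in WT2, against 6.85% and 6.69% over the libraries. SNHG1 had 7.09% (6.20 to 8.10%) and 7.55% (6.38 to 8.92%), and both intervals included the value of their library. The single SNHG16 cluster had 2.94% (2.34 to 3.68%), and only 40% of its reads carried a change. Intervals cover counting error only, and every deposited cluster had at least 2 converted positions, so these shares were selected on conversion.

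Per ZFAS1 cluster, the median percentage of converted reads was 78.6% in WT1 (range 51.4 to 100%), against 94.1% over all clusters. In WT2 it was 94.6% (57.1 to 100%), against 97.5%. Read number again mattered in WT1, where clusters of at least 100 reads had a median of 71.4% over the library and 73.1% in ZFAS1. In WT2 the same comparison gave 96.8% over the library and 79.0% over 7 ZFAS1 clusters. RNase T1, which cuts after G, trimmed the fragments, and the tables give the share of reads that end in G. That column was near 0 on the minus strand in every library, with medians of 0% against 97.1% and 100% on the plus strand in the WT libraries, although 80.5% and 95.9% of minus-strand cluster sequences ended in G. It was therefore read for no host on the minus strand. For the plus-strand hosts, ZFAS1, SNHG8 and SNHG16, the median cluster had 75% and 100% of reads ending in G.

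Other noncoding snoRNA hosts gave a reference. Of 19 further such genes, 6 had a cluster in WT1 and 2 in WT2, beside the 1.46% and 0.736% of RefSeq lncRNA genes given above, and 1 had a KO cluster. The median was 0 clusters per gene in each WT library. Whether the authors' annotation uses these names for the genes without a cluster is not known, so the counts may be too low. SNHG17, which carries SNORA71 copies on chromosome 20, had 22 clusters with 974 reads in WT1 and 2 with 156 reads in WT2. SNHG29, named LRRC75A-AS1 in the tables, had 12 clusters with 454 reads and 3 with 150 reads, and 1 KO cluster of 179 reads. DANCR, a long noncoding RNA that hosts SNORA26, had 9 clusters with 155 reads in WT1 and none in WT2.

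Many snoRNAs lie in protein-coding genes, above all in genes of the translation machinery. Of 45 protein-coding hosts listed, 33 had a cluster in WT1, 22 in WT2, 20 in both and 1 in KO. Of all RefSeq protein-coding genes, 42.4% had a cluster in WT1, 29.1% in WT2, 27.1% in both and 2.95% in KO. Of the 35 hosts found in either WT library, 20 were found in both, close to the 56.9% of all genes. The median over all 45 hosts was 2 clusters in WT1 and 0 in WT2. The hosts with the most WT clusters were not ribosomal protein genes. WDR43, a factor of ribosome biogenesis, had 24 clusters with 893 reads and 9 clusters with 473 reads. CHD8, a chromatin remodeller, had 15 clusters with 456 reads and 3 clusters with 205 reads. KPNA4, a nuclear import receptor, had 14 clusters with 514 reads and 3 clusters with 137 reads. None of these 3 genes had a KO cluster.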

How the data were processed

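The deposited tables list clusters called by the authors in each library separately. Reads, distinct read sequences, converted positions and T events are whole counts, not normalised, per the file headers; deposited fraction columns give shares of a cluster's reads, and 2 deposited score columns of the cluster caller were not used. The submitters' processing notes name cutadapt 1.8.3, Bowtie 1.1.2, hg38 and GRCh38.p5; cluster caller, annotation release and filters are not given in the sources used here. The lowest values in every table were 5 reads and 2 converted positions per cluster.

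Members were found by gene name; RefSeq (GRCh38.p14) gave gene spans, start sites and snoRNA positions for all 10, except the SNHG6 strand, taken from its clusters. With 2 WT and 1 KO libraries no test between genotypes was made; values are means with SD or shares with 95% Wilson intervals (counting error only). Members and lists were chosen with earlier results of these data known. Named are all 10 members, the 3 genes of each host list with the most WT clusters, and the 3 genes nearest to ZFAS1 in read share; clusters named are the strongest, the overlapping ones and, chosen after their values were seen, those nearest the snoRNAs or in the printed sequences of SNHG16 and of the SNHG1 start. Alternatives covered read and conversion minimums, equal cluster numbers, naming by position, overlap, single libraries, the strongest ZFAS1 cluster and SNHG14. The overlap procedure recovered 100% of overlaps planted among 27155 simulated intervals. Python 3.11.15, numpy 2.4.6, pandas 2.3.3, scipy 1.17.1 and matplotlib 3.10.9 were used.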

Additional observations from a re-analysis of the deposited data

Results flagged for a closer look

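Signal was found in WT1 on annotations outside the member names, and in WT2 only after the last ZFAS1 cluster. The SNHG3 interval held 9 clusters of WT1 on the strand of the gene under the names RCC1 and U17, against 0 in WT2 and 0 in KO. In the 10 kb after the last ZFAS1 cluster, on the same strand, WT1 had 5 clusters with 314 reads and WT2 had 2 clusters with 100 reads, against 0 in KO. Of these, 3 clusters with 293 reads and 1 cluster with 35 reads were named for the repeat L2a, an old LINE element. In WT1, 3 snoRNAs of the members had a cluster on them, against 0 in WT2 and 0 in KO. WT1 held 87230 clusters in all and KO 842, so nothing is read from an absence in KO, and no difference was tested.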

How the results depend on the processing

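Of 45 values recomputed for 8 results, 39 stayed within the WT spread, the interval of the share or 1.5 times the count. This count is no measure of robustness, since some alternatives could not move. A mean of 2 WT shares cannot shift beyond their SD when 1 library is left out. SNHG14 had no cluster, so leaving it out could change nothing. With at least 3 converted positions per cluster, the mean number of member clusters over the WT libraries fell from 29.5 to 19.5, the ZFAS1 share of cluster reads rose from 0.194% to 0.402% and that of the other 9 from 0.0165% to 0.0305%; this minimum selects on conversion. With the same number of clusters in each WT library the mean was 18.5 member clusters. Finding members by RefSeq interval gave the other 9 genes 0.0287%, since clusters named RCC1, U17 and SNORD26 then counted and those of SNHG5 did not. Without its strongest cluster in each library ZFAS1 held 0.113%. Leaving out either WT library gave between 18 and 41 member clusters and a ZFAS1 share between 0.129% and 0.258%. The number of members with clusters in both WT libraries was 2 under every alternative run for it. An overlap of at least 50% of the shorter cluster gave 6 of 18 shared WT2 clusters (33.3%, 16.3 to 56.3%), whose lower limit lay below the 19.0% of all WT2 clusters, and, added after seeing the data, 7 of 41 shared WT1 clusters. No paired analysis was possible because the KO group has 1 library with no replicate number and no result comes from a test. Few clusters limit every share of the members: 18 in WT2 and 0 in KO.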
